A study of Mus musculus with 12 samples.

Results

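Tcf7, Lef1, Bach2, Satb1, Foxo1, Foxp1, Id3 and Myb encode transcription factors that hold T cells in a naive, resting or stem-like state, and the accessible chromatin of these 8 genes was followed through a glucocorticoid experiment in mouse Th17 cells. A peak, which is a stretch of open chromatin, was assigned to a gene when its centre lay in the gene's protein-coding span, or otherwise when that span was the nearest protein-coding span within 50 kb. This gave 749 of the 222105 peaks of the series, and none of the 749 also lay inside the span of another gene. A peak assigned by position need not be one that acts on that gene.

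ATAC-seq, in which a transposase cuts open DNA and the cut fragments are counted by position, was performed on T cells from mice of the C57/B6 background. Naive CD4+ T cells were isolated from spleen and dLN (spelled as in the labels), differentiated in culture into Th17Hom cells, the homeostatic form of the IL-17-producing helper cell, and then kept for 2 days with or without Dex (dexamethasone), a synthetic glucocorticoid. The 4 groups of 3 libraries were WT cells without Dex (WT control), WT cells with Dex (WT Dex), GR cKO cells without Dex (cKO control) and GR cKO cells with Dex (cKO Dex). GR is the glucocorticoid receptor, the nuclear receptor that Dex activates, and cKO stands for its conditional knockout. The sources used here name no Cre driver, dose of Dex or age of the mice, and do not say whether the 3 libraries of a group came from separate animals. P-values therefore measure the spread between these libraries, which may be technical.

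TCF-1 (from Tcf7) and LEF-1 (from Lef1) are related DNA-binding proteins that act with beta-catenin downstream of Wnt signals and keep T cells able to renew themselves. Foxo1 and Foxp1 encode forkhead factors of quiescence, Bach2 a repressor of effector genes, Satb1 an organiser of chromatin loops, Id3 an inhibitor of the E proteins, and Myb a factor of progenitor and stem-like memory cells. Expression of most of these genes is known to go down as helper T cells become effector cells, and accessibility, which is measured here, is not expression.

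The accessible regions of the 8 genes differed in where they lay. RefSeq (GRCm38.p6, which mm10 also stands for) lists 18 promoter windows for the 8 genes, and each window touched a peak. The 250 bases before the start are shown for Foxo1, which had the strongest of these promoter peaks, for Satb1, whose summed count changed, and for Myb, whose promoter peak was weak. All of them are written 5′ to 3′ on the strand of the gene, with matches to the motifs searched in capitals.
Foxo1, chr3:52268087-52268336, plus strand: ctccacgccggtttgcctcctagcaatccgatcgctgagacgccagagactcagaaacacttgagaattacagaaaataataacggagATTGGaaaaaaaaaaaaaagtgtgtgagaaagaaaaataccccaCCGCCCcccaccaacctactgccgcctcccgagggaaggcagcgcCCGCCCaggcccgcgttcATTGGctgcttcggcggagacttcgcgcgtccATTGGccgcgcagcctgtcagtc
Satb1, chr17:51833291-51833540, minus strand: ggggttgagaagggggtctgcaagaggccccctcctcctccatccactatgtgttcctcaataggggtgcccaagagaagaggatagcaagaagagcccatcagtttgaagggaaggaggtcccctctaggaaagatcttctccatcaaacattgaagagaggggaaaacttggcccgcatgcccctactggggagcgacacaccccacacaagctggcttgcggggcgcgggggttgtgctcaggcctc
Myb, chr10:21160985-21161234, minus strand: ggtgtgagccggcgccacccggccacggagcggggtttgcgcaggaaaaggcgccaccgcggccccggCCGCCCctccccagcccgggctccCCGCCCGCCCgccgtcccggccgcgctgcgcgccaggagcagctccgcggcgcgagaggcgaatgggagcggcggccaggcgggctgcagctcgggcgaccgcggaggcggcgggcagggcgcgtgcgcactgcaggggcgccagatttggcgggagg
Capitals mark the GC box (GGGCGG) and the CCAAT box (CCAAT) on either strand. The Satb1 window held no match to any motif searched. The palindromic glucocorticoid receptor motif was in 0 of the 18 windows and in 0.387% of all 32817 promoter windows of the same length. The TCF/LEF letters CTTTGAT were in 0 of 18 (3.21% of all) and the forkhead letters TGTTTAC in 0 of 18 (3.16% of all). The MYB letters CAACTG were in 2 of 18 (11.1% of all), the E-box CAGCTG in 3 (13.0%), the GC box in 11 (32.7%), the CCAAT box in 3 (33.8%) and TATAA in 3 (22.8%). Both strands were searched, overlapping matches were allowed, and windows of 1 gene can overlap each other. A match is a string of letters and not a measured binding site, and the absence of one covers this window only.

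The peaks over these windows ranged from strong to barely present. The Foxo1 promoter peak stood at 92.6 CPM (counts per 1e6 of the scaled library size, mean of 12 libraries), against 61.2 CPM for the outermost Satb1 start and 9.42 CPM for Myb. For Bach2, the 1 start in the table lies far inside the gene, and its peak was at 0.433 CPM; the strongest Bach2 peak lay near the 5′ end of the span instead. The 14 tested peaks over a listed start had a median width of 2040.5 bases and a median level of 30.1 CPM, against 474.0 bases and 1.71 CPM for the 522 tested peaks elsewhere within the spans.

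Of the 749 peaks, 695 passed the filter on low counts and were tested; the other 54 fell under it. Over the 12 libraries, totals ran from 12988437 to 25081591 counts. The share of counts in the strongest 10% of all 222105 peaks, tested or not, was 62.5% to 64.0% in WT control and 62.7% to 65.4% in WT Dex. It was 59.7% to 62.3% in cKO control and 59.9% to 63.7% in cKO Dex, with every cKO control library below every WT control library. Nr3c1, which encodes GR, had a summed count of 104 to 114 CPM in WT control, 108 to 119 in WT Dex, 103 to 114 CPM in cKO control and 109 to 119 CPM in cKO Dex. None of its 24 tested peaks differed between genotypes at an edgeR adjusted p under 0.05, with 4 at an unadjusted p under 0.05 in control cells and 3 with Dex. Which part of Nr3c1 was deleted is not stated in the labels, so its accessibility cannot test which genotype a library has. Markers of T helper cells were open (10 of 10 with peaks, median 10.7 CPM per kb of peak, Il17a at 15.1 and Il23r at 9.88), against medians of 3.43 for 7 B cell genes, 6.61 for 6 CD8 T and NK cell genes, 5.67 for 7 myeloid and dendritic genes and 4.33 for 5 of 6 erythroid and stromal genes, of which Hbb-bs had no peak.

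At the level of single peaks, Dex in WT cells moved 1 of the 695 tested peaks of these genes past the threshold, an edgeR adjusted p under 0.05 over all 202587 tested peaks (called, below). It was a Foxp1 peak that rose. Over all tested peaks, 0.42% were called higher and 0.114% lower in this comparison, so the share of 0.144% among the peaks of the 8 genes was not above the background. At an unadjusted p under 0.05, 61 of the 695 (8.78%) differed, 36 higher (background 4.23%) and 25 lower (background 4.08%), against 8.32% of all peaks. The groups did not overlap, with Dex higher, at 64 peaks (9.21%, background 6.96%) and with Dex lower at 38 (5.47%, background 6.9%). The other 4 comparisons gave 1 call or none. For Dex in cKO cells none of the 695 was called (background 0.00296%) and 30 had an unadjusted p under 0.05 (4.32%, background 5.84%). For the difference between the Dex effects in WT and cKO cells none was called (background 0.0276%) and 36 had an unadjusted p under 0.05 (5.18%, background 5.65%). For cKO against WT in control cells none was called (background 0.0104%), with 41 at an unadjusted p under 0.05 (5.9%, background 7.69%). For cKO against WT among Dex-treated cells the same Foxp1 peak was called lower (1 of 695, background 0.13%) and none higher (background 0.04%), with 63 at an unadjusted p under 0.05 (9.06%, background 8.35%). DESeq2 also called no peak of the 8 genes in the 3 comparisons without an edgeR call.

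The Foxp1 peak that rose lies within the gene at chr6:98992498-98993624 (mm10), 35237 bases from the nearest listed start. Foxp1 encodes a forkhead factor that keeps naive T cells quiescent. The peak stood at 19.9, 23.6 and 20.1 CPM in WT control, against 33.8, 38.3 and 32.5 CPM in WT Dex. In cKO cells it stood at 20.8, 19.9 and 18.7 CPM without Dex and at 21.4, 24.3 and 19.1 CPM with Dex. The 3 WT Dex libraries were above all 9 others, which overlapped one another. The rise with Dex in WT was 1.64-fold, a log2 fold change of 0.72 ± 0.11 (SE, n = 3 per group; edgeR adjusted p = 4.5e-05). In cKO cells the log2 fold change was 0.13 ± 0.12 (edgeR adjusted p = 0.919). Among Dex-treated cells the level in cKO was lower by a log2 of -0.69 ± 0.11 (edgeR adjusted p = 0.000185), a comparison that uses the same WT Dex libraries. The test of the difference between the Dex effects gave 0.59 ± 0.16, with an unadjusted p of 0.00058 and an edgeR adjusted p of 0.400. That interaction was therefore not called, although 4 of 7 other settings called it: scaling by total counts, loess offsets, a stricter filter on low counts, and the share of counts in strong peaks as a covariate. None of the 12 leave-outs called it. The calls for Dex in WT and for genotype with Dex held in 20 of 20 alternatives, 12 of which left out 1 library.

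**Figure D1:**
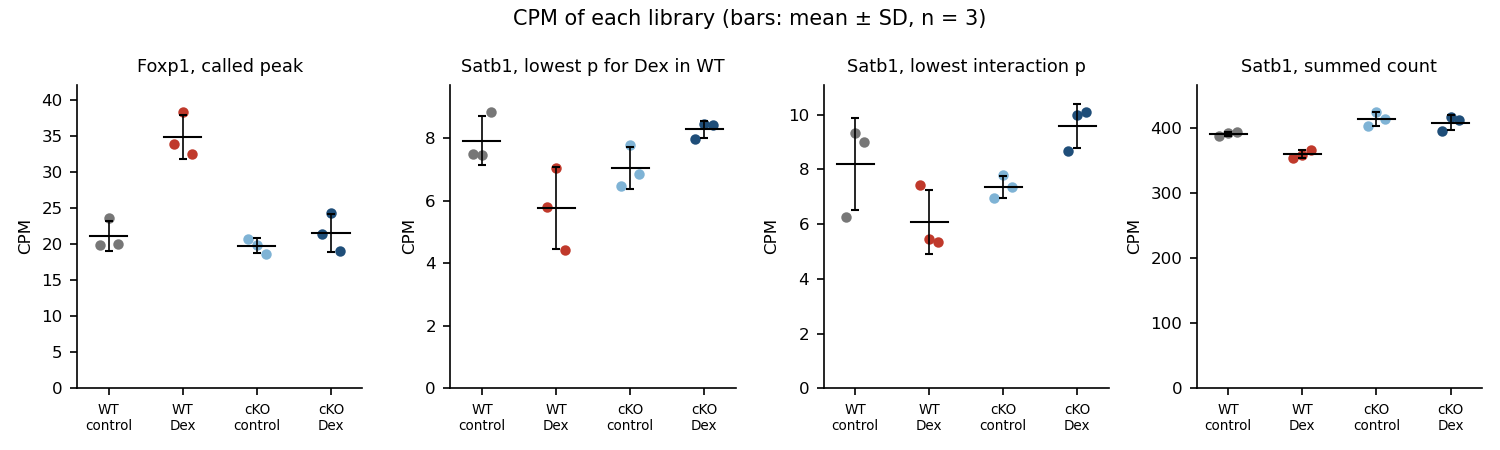
CPM of each library (points) with mean ± SD (bars, n = 3) for the called Foxp1 peak, the Satb1 peaks with the lowest p for Dex in WT and for the interaction, and the summed count of Satb1. The WT Dex points of Foxp1 (32.5 to 38.3) lie above every other library, and those of the Satb1 sum (354 to 366) lie below every other library.

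None of the 4 peaks on each side of the called Foxp1 peak was called, but these 8 were weaker. Their mean levels among the WT control libraries ran from 0.228 to 5.66 CPM. The strongest of them, chr6:98981281-98981739, had a log2 fold change of 0.18 ± 0.18 for Dex in WT. The others had SEs from 0.41 to 0.73, so a rise as large as that of the called peak could be missed there. Elsewhere in Foxp1, values for Dex in WT leaned upwards without passing the threshold. The strongest Foxp1 peak, chr6:99056435-99058188, stood at 97.6, 96.2 and 88.5 CPM in WT control, against 112, 121 and 108 CPM in WT Dex, with no overlap. In cKO it stood at 89.9, 102 and 87.7 CPM without Dex and 95.3, 101 and 88.6 CPM with Dex. Its log2 fold change was 0.28 ± 0.09 in WT (edgeR adjusted p = 0.240) and 0.03 ± 0.09 in cKO (edgeR adjusted p = 0.983). A further peak at chr6:99095160-99096990, chosen after its values were seen, stood at 22.7, 23.7 and 24.2 CPM in WT control, against 33.0, 31.4 and 28.6 CPM in WT Dex, a log2 of 0.39 ± 0.11. Its edgeR adjusted p was 0.0894, and 7 of the 8 alternatives other than leave-outs called it.

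Foxp1 (chr6:98925342-99522746, minus strand) held 224 of the 749 peaks, of which 216 lay within its span and 211 were tested. At an unadjusted p under 0.05, 19 of the 211 were higher (background 4.23%) and 3 lower (background 4.08%) with Dex in WT. With Dex in cKO, 8 were higher (background 2.61%) and 4 lower (background 3.23%). The median log2 fold change over the 211 was 0.11 in WT and -0.03 in cKO, where all tested peaks had medians of 0.00 and 0.00. Counts summed over all Foxp1 peaks were 1115, 1163 and 1145 CPM in WT control, 1211, 1245 and 1228 in WT Dex, 1180, 1273 and 1189 CPM in cKO control, and 1185, 1271 and 1146 CPM in cKO Dex. WT Dex lay above WT control in every library, but the cKO libraries spanned both. Without Dex, the sum was higher in cKO than in WT by a log2 of 0.09 ± 0.03 (edgeR adjusted p = 0.244), which was not called. It was called with the share of counts in strong peaks as a covariate (0.15, edgeR adjusted p = 0.0243). The log2 fold change of the sum for Dex in WT was 0.11 ± 0.03 (edgeR adjusted p = 0.0964) and was not called; the interaction was 0.12 ± 0.05 (edgeR adjusted p = 0.511). For Dex in WT, 5 of 22 alternatives called the Foxp1 sum: loess offsets, the replicate block, only the libraries compared, and leaving out cKO control replicate 2 or cKO Dex replicate 2. The 3 peaks over listed Foxp1 starts ranked 11, 34 and 45 of its 224 peaks by level, at 26.2, 9.13 and 6.44 CPM, and held 3.49% of the sum; none was called in any comparison.

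**Figure D2:**
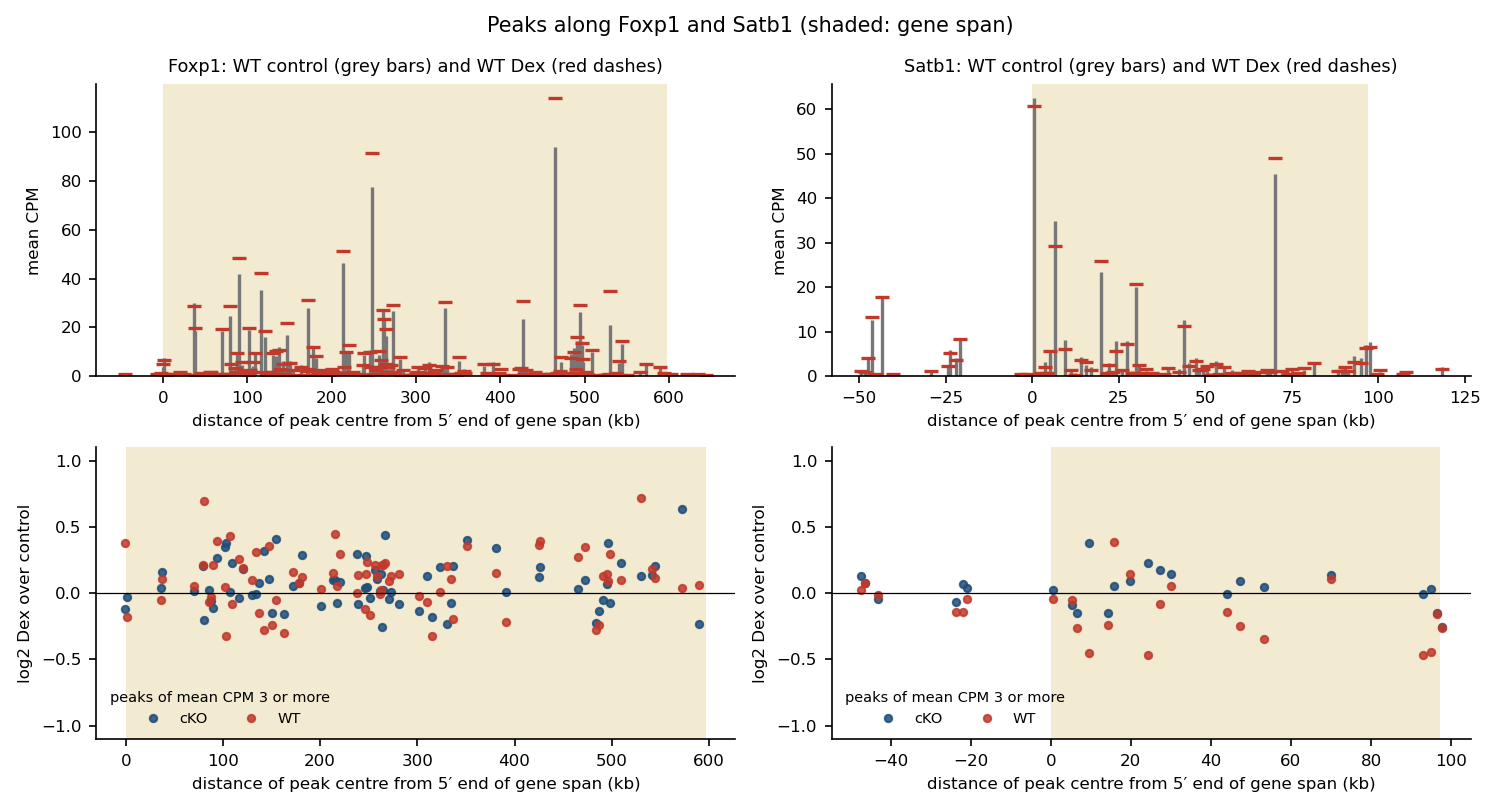
Peaks along Foxp1 and Satb1 by distance from the 5′ end of the gene span in kb (shaded: the span). Upper panels give the mean CPM in WT control (grey bars) and WT Dex (red dashes), and lower panels the log2 of Dex over control in WT (red) and cKO (blue) for peaks of mean CPM 3 or more. The called Foxp1 peak is the highest red point near 530 kb (0.72), and red Satb1 points lie mostly under 0.

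Summed over the whole locus, Satb1 was the 1 gene of the 8 past the threshold, falling in WT cells with Dex. Satb1 encodes a nuclear protein that anchors chromatin loops and is needed for T cell development. It occupies chr17:51736187-51833290 on the minus strand and held 90 peaks, 81 tested. Its summed count was 388, 393 and 394 CPM in WT control, 354, 359 and 366 in WT Dex, 403, 425 and 415 CPM in cKO control, and 395.5, 418 and 413 CPM in cKO Dex. The 3 WT Dex values were the lowest of the 12. The sum fell by 8.13% with Dex in WT, a log2 of -0.12 ± 0.03 (edgeR adjusted p = 0.0397 over 17394 genes; 1 of 8 genes called lower, where 1.01% of all genes were). No sum of the 8 was called higher, where 1.65% of all genes were. With Dex in cKO it changed by -0.02 ± 0.03 (edgeR adjusted p = 0.898; 0 of 8 called, background 0.00575%). Among Dex-treated cells, the sum was higher in cKO than in WT by 0.18 ± 0.03 (edgeR adjusted p = 0.00134; 1 of 8 called higher, background 1.33%, and 0 lower, background 1.02%). In control cells it was 0.08 ± 0.03 (edgeR adjusted p = 0.276; 0 of 8 called, background 0.23%). The interaction was -0.10 ± 0.05 with an edgeR adjusted p of 0.642, so that the Dex effects in the genotypes were not shown to differ (0 of 8 called, background 0.224%).

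The call for Dex in WT depended on single libraries. It was lost without any 1 of the 6 WT libraries and without cKO control replicate 3, with edgeR adjusted p from 0.0265 to 0.249 and log2 values from -0.14 to -0.11 over the 12 leave-outs. It was also lost with peaks inside the span only (-0.13) and with the scaling factors of the peak table (-0.08). The cKO to WT difference under Dex was called without each of the 12 libraries in turn and was lost with the scaling factors of the peak table alone, at 0.10; under that scaling the median of all genes was -0.08. Of the marker lists, that of T helper cells summed to 1212 to 1260 CPM in WT control and 1268 to 1273 in WT Dex. The lists of CD8 T and NK, myeloid and dendritic, and erythroid and stromal genes overlapped between these groups. Only the B cell list was lower in WT Dex without overlap, as the Satb1 sum was. It summed to 391 to 407 CPM in WT control, 361 to 373 in WT Dex, 417 to 437 in cKO control and 393 to 425 in cKO Dex. All 7 genes of the B cell list had a peak and none was at 0, with Cd79b at 2.44, Cd79a at 4.96 and Ebf1 at 8.51 CPM per kb. Ebf1, with 93 peaks, made up 81.9% of the list's sum. Without it the other 6 summed to 67.8 to 78.2 CPM in WT control, 56.2 to 72.6 in WT Dex, 74.7 to 91.0 in cKO control and 63.6 to 80.2 in cKO Dex, and WT Dex overlapped WT control; the part of such cells in the Satb1 result was not tested. In bulk samples, fewer cells of a type and less open chromatin per cell cannot be told apart.

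On the scaling of the peak counts, the lower Satb1 sum in WT Dex lay in its weaker peaks. On that scaling the fall of the sum was not called (-0.08, edgeR adjusted p = 0.691). The 7 Satb1 peaks in the strongest 10% of all tested peaks summed to 217 CPM in both WT control and WT Dex. The other 74 summed to 177 CPM in WT control but 157 in WT Dex, and to 177 and 180 CPM in the cKO groups without and with Dex. Of the 74, 20 had a log2 fold change above 0 in WT against 38 in cKO, with a median of -0.155 in WT. All tested peaks had medians of 0.02, -0.03 and -0.06 at ranks of 10 to 25%, 25 to 50% and in the weaker 50%. The part of this general shift was not tested. The outermost promoter peak, chr17:51831019-51834470, stood at 59.7, 65.9 and 61.6 CPM in WT control, against 66.1, 59.5 and 56.3 CPM in WT Dex, with full overlap. The peak over an inner start, chr17:51825982-51827256, stood at 34.4, 35.4 and 35.1 CPM in WT control, against 30.3, 30.9 and 26.4 CPM in WT Dex. Its cKO values were 36.8, 41.2 and 34.9 CPM without Dex and 34.7, 37.3 and 29.8 CPM with Dex. It lay lower with Dex in WT without overlap, at a log2 of -0.26 ± 0.11 (edgeR adjusted p = 0.458), and 4 of 8 alternatives other than leave-outs called it.

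No single Satb1 peak was called. The peak with the lowest interaction p, chr17:51823083-51824389 within the gene, stood at 6.25, 9.31 and 8.99 CPM in WT control, 7.44, 5.47 and 5.33 in WT Dex, 6.96, 7.78 and 7.36 CPM in cKO control and 8.66, 9.99 and 10.1 CPM in cKO Dex. The WT groups overlapped through the lowest control library, while every cKO Dex value was above every cKO control value. The interaction was -0.83 ± 0.23 (edgeR adjusted p = 0.405), and cKO against WT under Dex was 0.66 ± 0.16 (edgeR adjusted p = 0.0679, called in 7 of 8 alternatives other than leave-outs). The peak with the lowest p for Dex in WT, chr17:51808571-51809431, stood at 7.47, 7.44 and 8.82 CPM in WT control, against 5.80, 7.03 and 4.42 CPM in WT Dex, a log2 of -0.47 ± 0.17 (edgeR adjusted p = 0.304). At an unadjusted p under 0.05, 8 of the 81 tested Satb1 peaks were lower (background 4.08%) and 0 higher (background 4.23%) with Dex in WT. With Dex in cKO, 1 was higher (background 2.61%) and 0 lower (background 3.23%).

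**Figure D3:**
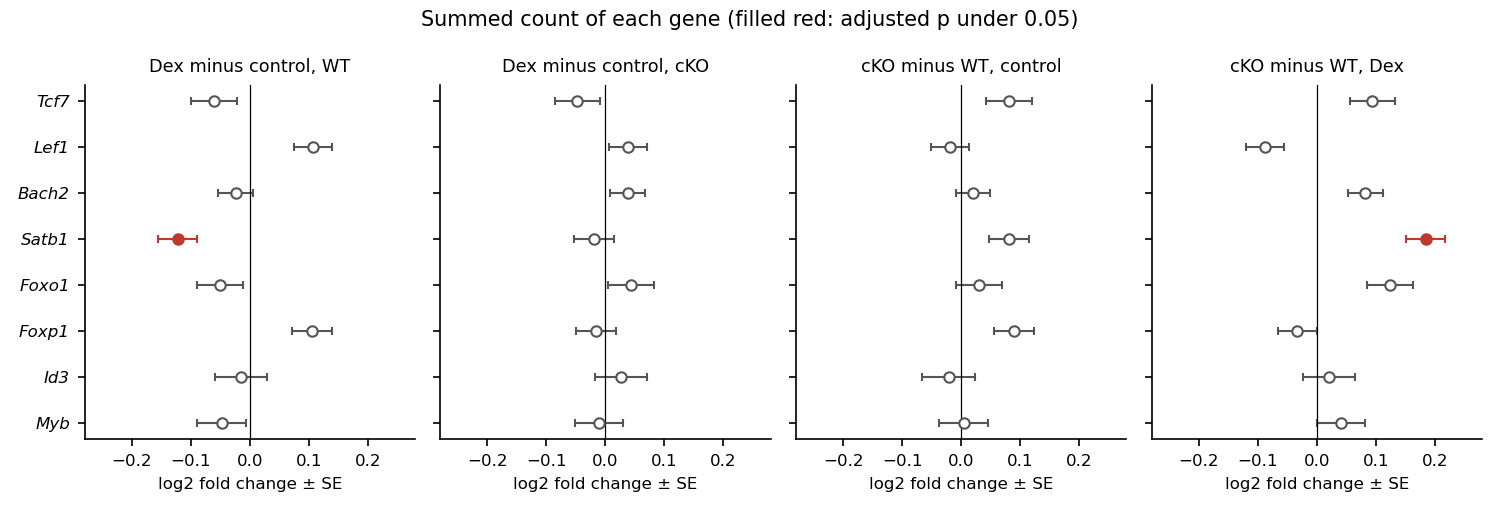
Log2 fold change ± SE of the summed count of each of the 8 genes in 4 comparisons (n = 3 per group; red and filled where the edgeR adjusted p is under 0.05). Satb1 is filled for Dex in WT (-0.12) and for cKO minus WT under Dex (0.18), and the other points are open.

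Tcf7 and Lef1, the related Wnt-pathway factors, showed no called change, and their values for Dex in WT had opposite signs. Tcf7 (chr11:52246527-52283383, minus strand) held 37 peaks, 33 tested, and 27 of the 37 lay upstream of the gene. Its strongest peak, chr11:52271747-52284868, covered the promoter with a width of 13122 bases and stood at 83.7, 72.8 and 71.5 CPM in WT control, against 71.8, 71.1 and 72.0 CPM in WT Dex. It stood at 72.8, 75.6 and 79.2 CPM in cKO control and 75, 72.0 and 75.7 CPM in cKO Dex, so that Dex and control overlapped in each genotype, while every WT Dex value was under every cKO control value. The log2 fold change for Dex was -0.08 ± 0.09 in WT and -0.03 ± 0.09 in cKO. An upstream peak at chr11:52299182-52300248, the runner-up in level, chosen after its values were seen, was at 60.0, 60.2 and 55.7 CPM in WT control, against 60.7, 63.6 and 57.0 CPM in WT Dex. Tcf7's summed count was 366, 333 and 341 CPM in WT control, 322, 335 and 339 in WT Dex, 349, 379 and 371 CPM in cKO control and 343, 359 and 362 CPM in cKO Dex. Its largest difference was between genotypes under Dex, 0.09 ± 0.04 (edgeR adjusted p = 0.213).

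Lef1 (chr3:131110297-131224357, plus strand) held 78 peaks, all tested. Its strongest peak, chr3:131207643-131209333 near the 3′ end of the span, stood at 65.9, 73.5 and 72.5 CPM in WT control, against 83.6, 80.6 and 80.8 CPM in WT Dex, with no overlap. In cKO it was at 63.4, 74.5 and 65.2 CPM without Dex and 71.7, 72.8 and 68.2 CPM with Dex. The log2 fold change was 0.21 ± 0.09 in WT (edgeR adjusted p = 0.530) and 0.07 ± 0.09 in cKO. A peak over an inner start, chr3:131156190-131158415, stood at 58.2, 65.2 and 61.4 CPM in WT control, against 77.1, 81.1 and 68.8 CPM in WT Dex. It stood at 53.2, 60.0 and 55.5 CPM in cKO control and 63.6, 66.2 and 63.2 CPM in cKO Dex, so Dex was higher without overlap in both genotypes. Neither passed the threshold, at 0.30 ± 0.10 in WT (edgeR adjusted p = 0.211) and 0.19 ± 0.10 in cKO (edgeR adjusted p = 0.854). The outer promoter peak, chr3:131109260-131112866, overlapped between all groups, at 40.0 to 48.5 CPM in WT control, against 43.4 to 50.6 CPM in WT Dex. The summed count of Lef1 was 460, 476 and 487 CPM in WT control, 508, 514 and 512 in WT Dex, 470, 478 and 459 CPM in cKO control and 480, 489.5 and 474 CPM in cKO Dex. WT Dex was above every other library, by 0.11 ± 0.03 over WT control (edgeR adjusted p = 0.0670), and 4 of 22 alternatives called this difference. A split by level used the scaling of the peak counts, which differs from that of the summed count. On it, the 10 strongest-class Lef1 peaks summed to 305 CPM in WT control and to 351 in WT Dex, and the other 68 to 177 and 185 CPM.

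Bach2, a repressor of effector differentiation, was the most open of the 8 loci and had no called peak. It occupies chr4:32238413-32586109 on the plus strand and held 189 peaks, 173 tested, of which 30 were in the strongest 10% of all tested peaks. Its strongest peak, chr4:32249523-32252945, was the highest of all 749 and stood at 132, 126 and 128 CPM in WT control, against 128, 123 and 115 CPM in WT Dex. It stood at 110, 119 and 111 CPM in cKO control and 130, 119 and 102 CPM in cKO Dex. The WT and cKO control libraries did not overlap, at -0.18 ± 0.09 for cKO over WT (edgeR adjusted p = 0.657), and the Dex groups did. Of all tested peaks, 7.6% were lower in cKO control without overlap, and the strongest 10% had a median log2 of -0.13 in this comparison. With loess offsets the Dex effect in WT at this peak was called at -0.21, against -0.08 ± 0.09 with TMM scaling. The Bach2 peak with the lowest p for Dex in WT, chr4:32313654-32314231, stood at 8.92, 7.05 and 10.1 CPM in WT control, against 14.3, 10.2 and 12.7 CPM in WT Dex, 0.51 ± 0.15 (edgeR adjusted p = 0.128). The summed count was 1567, 1529 and 1567 CPM in WT control, 1547, 1516 and 1523 in WT Dex, 1541, 1636 and 1552 CPM in cKO control and 1648, 1654 and 1552 CPM in cKO Dex. These groups overlapped except WT Dex, whose highest value lay under the lowest of cKO Dex, at 0.08 ± 0.03 (edgeR adjusted p = 0.145).

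Foxo1, a forkhead factor that switches on Il7r and Klf2, had its strongest peak at the promoter, as had Tcf7, Satb1 and Id3. Foxo1 occupies chr3:52268337-52350109 on the plus strand and held 61 peaks, 56 tested. Peaks over listed starts gave from 0.0276% (Bach2) to 30.3% (Satb1) of the sum in the other genes. The Foxo1 promoter peak gave 30.3% of the summed count of its gene. That peak, chr3:52267311-52272109, whose upstream sequence is printed above, stood at 88.9, 102 and 97.1 CPM in WT control, 93.9, 99.0 and 88.5 in WT Dex, 79.3, 102 and 81.7 CPM in cKO control and 94.6, 103 and 81.4 CPM in cKO Dex. All groups overlapped, and the log2 fold change for Dex was -0.03 ± 0.10 in WT and 0.09 ± 0.10 in cKO. An intragenic peak at chr3:52284454-52285177 had the lowest p of the gene both for Dex in WT and for the interaction. It stood at 18.0, 14.7 and 14.3 CPM in WT control, 13.6, 12.1 and 9.58 in WT Dex, 11.4, 14.1 and 13.1 CPM in cKO control and 15.7, 16.0 and 12.1 CPM in cKO Dex. It was lower with Dex in WT without overlap, at -0.40 ± 0.14 (edgeR adjusted p = 0.275, called in 4 of 8 alternatives other than leave-outs), and the interaction was -0.59 ± 0.20 (edgeR adjusted p = 0.650). The summed count was 294 to 307 CPM in WT control, 290.1 to 293 in WT Dex, 297 to 330.2 CPM in cKO control and 308 to 331 CPM in cKO Dex, with cKO above WT under Dex by 0.12 ± 0.04 (edgeR adjusted p = 0.0877).

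Id3 and Myb had no peak with an unadjusted p under 0.05 for Dex in either genotype. Id3 encodes an inhibitor that binds E proteins and keeps them off DNA. It spans chr4:136143822-136145392 on the plus strand, and its 31 peaks, 26 tested, lay outside the short span except for 1. That promoter peak, chr4:136143396-136145250, stood at 38.0, 37.2 and 37.6 CPM in WT control, against 47.6, 41.6 and 35.9 CPM in WT Dex. It stood at 29.0, 32.8 and 32.5 CPM in cKO control and 36.3, 36.4 and 30.2 CPM in cKO Dex. Every cKO control value was under every WT control value, as at 7.6% of all tested peaks. The log2 of cKO over WT was -0.26 ± 0.11 in control cells (edgeR adjusted p = 0.578) and -0.28 ± 0.11 with Dex (edgeR adjusted p = 0.414). The strongest 10% of all tested peaks, to which this one belongs, had medians of -0.13 and -0.12 in these comparisons. The Id3 sum was 151 to 169 CPM in WT control, against 154 to 161 CPM in WT Dex, a log2 of -0.02 ± 0.04.

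Myb (chr10:21124930-21160984, minus strand) held 39 peaks, 37 tested, and 29 lay upstream. Its strongest peak was not at the promoter but 26411 bases before the start, at chr10:21186579-21188212. That peak stood at 40.6, 33.8 and 37.4 CPM in WT control, 38.5, 36.3 and 35.3 in WT Dex, 34.3, 37.5 and 30.8 CPM in cKO control and 35.7, 37.5 and 31.9 CPM in cKO Dex, with all groups overlapping. The promoter peak, chr10:21160531-21161855, stood at 9.38, 9.41 and 9.40 CPM in WT control, against 10.0, 12.1 and 8.51 CPM in WT Dex. It stood at 7.56, 8.66 and 8.97 CPM in cKO control and 9.52, 10.8 and 8.77 CPM in cKO Dex. Both Myb peaks stayed short of the threshold in all 5 comparisons. The Myb sum was 191 to 205 CPM in WT control, against 188 to 193 CPM in WT Dex, a log2 of -0.05 ± 0.04 (edgeR adjusted p = 0.689).

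**Figure D4:**
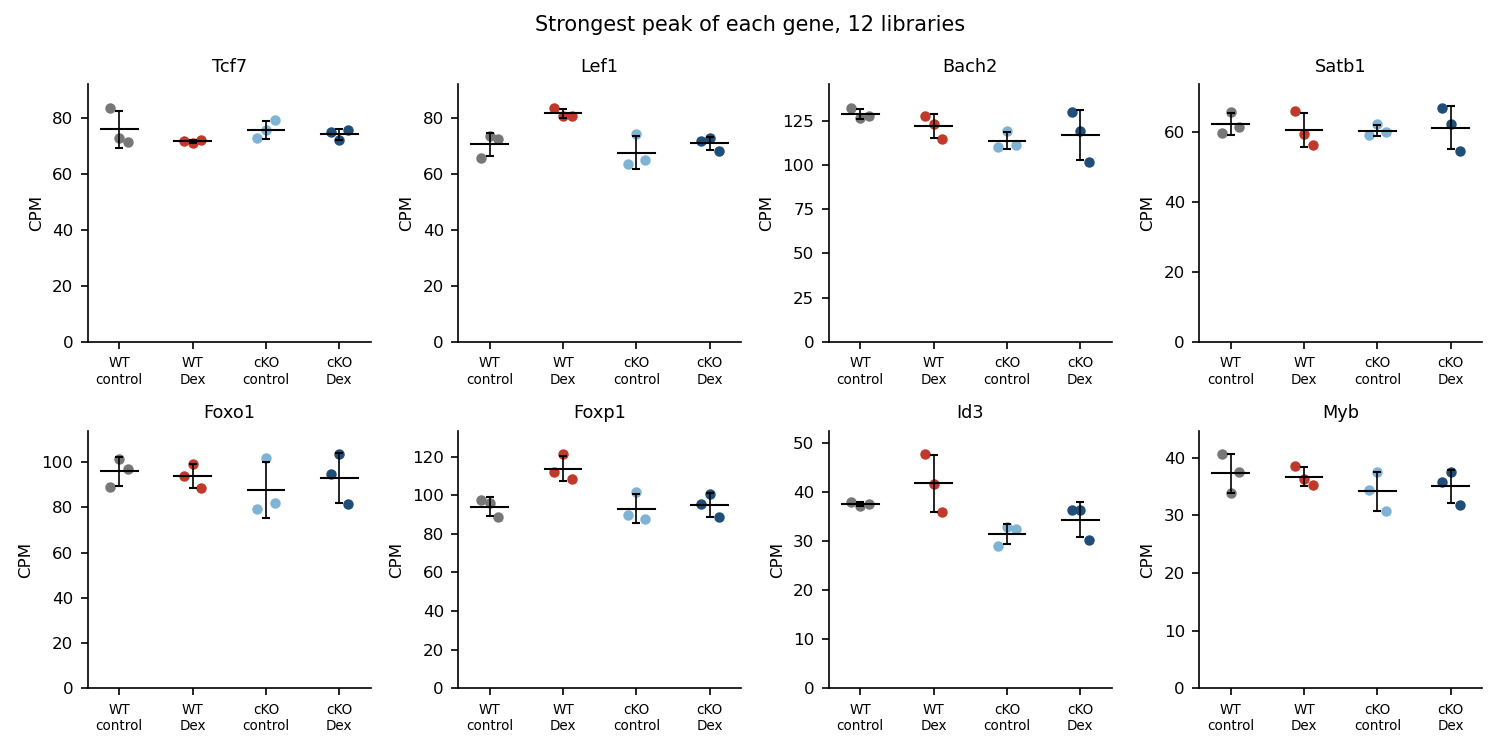
CPM of the strongest peak of each gene in the 12 libraries (points), with mean ± SD (n = 3) per group. The Foxp1 and Lef1 peaks are higher in WT Dex than in WT control without overlap (108 to 121 against 88.5 to 97.6 CPM for Foxp1), none of the 8 was called, and the other 6 overlap between those groups. Over all tested peaks, 6.96% were higher in WT Dex without overlap, and the strongest 10% had a median log2 fold change of 0.08.

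Compared per kb of peak width, the loci ranked from Bach2 at 12.2 CPM per kb (11.8 to 12.8 over 12 libraries) to Satb1 at 6.79 (6.11 to 7.33). Between them lay Id3 at 10.1, Foxp1 at 10.0, Myb at 9.68, Lef1 at 9.24, Tcf7 at 8.68 and Foxo1 at 8.57. Bach2 did not overlap Id3, and Foxo1 did not overlap Satb1, while every other pair of neighbours in this order overlapped in library range. All 17541 genes with a peak had a median of 7.62 CPM per kb, and 56.7% of them were above Satb1 against 20.6% above Bach2.

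Peaks of different strength shifted by different amounts in these comparisons, in the 8 genes as in the whole table. With Dex in WT, the 91 peaks of the 8 genes in the strongest 10% had a median log2 fold change of 0.08, and all 20258 peaks of that class had 0.08. The 287 peaks of the 8 genes in the weaker 50% had -0.03, against -0.06 over all. With Dex in cKO the strongest class was at 0.08 against 0.09 over all, and the weaker 50% at -0.06 against -0.16. For cKO minus WT the slope was the other way, with the strongest class at -0.08 in control cells and -0.05 with Dex, against -0.13 and -0.12 over all. These shifts moved with the share of counts in strong peaks given above, and their part in the values of single loci was not tested beyond the settings named. With that share as a covariate, 6 peaks of the 8 genes were called for Dex in WT, where 1.14% of all peaks were, and 9 for genotype under Dex, where 0.896% were.

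**Figure D5:**
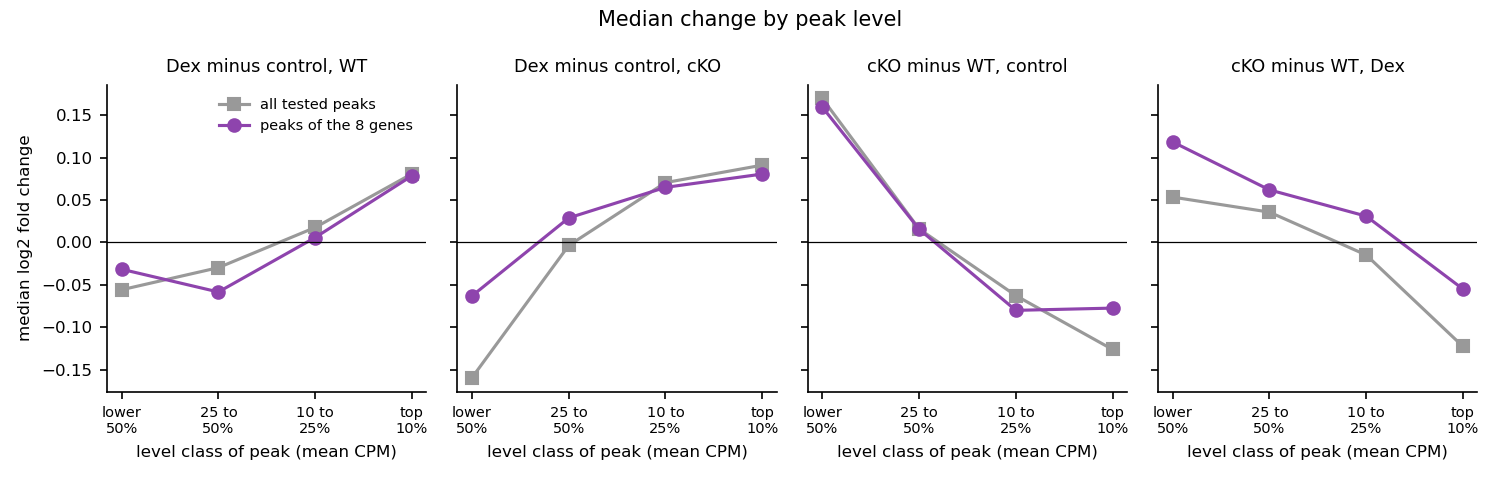
Median log2 fold change by level class of peak (x axis, weakest to strongest by mean CPM) for all tested peaks (grey) and for the tested peaks of the 8 genes (purple), in 4 comparisons. For Dex the strongest class lies near 0.08 in both genotypes, and for cKO minus WT the strongest class lies under 0.

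Other genes of the naive and stem-like programme were compared from a list of 20 genes (among them Ccr7, Il7r, S1pr1, Klf2, Slamf6, Ets1, Bcl11b, Ikzf1, Tcf3, Tcf12, Runx1, Zeb1, Foxo3, Ctnnb1, Tle4, Bcl2, Txnip, Cd27, and Pecam1, which is also on the stromal marker list). That list was chosen with earlier results of these data known, so a share above the background is no independent support. With Dex in WT, 11 of the 874 tested peaks of its genes (1.26%, background 0.42%) were called higher and 0 lower (background 0.114%). The 11 lay in 5 of the 20 genes, against 3.14% of all genes with a peak called higher and 1.08% with a peak called lower, but the 20 genes held 43.7 tested peaks each on average and all genes 10.6. Il7r, the receptor subunit for the survival cytokine IL-7, was higher at 2 peaks, the larger at chr15:9533291-9534549, 3979 bases outside the span, from 6.57 CPM in WT control to 17.3 CPM in WT Dex (log2 1.41 ± 0.15). Bcl2, an inhibitor of apoptosis, was higher at 4 peaks, the strongest from 69.0 to 101 CPM (0.55 ± 0.10). Txnip, a thioredoxin-binding regulator of glucose uptake, was higher at 3 peaks (the strongest from 10.4 to 23.8 CPM, 1.18 ± 0.14). S1pr1, the receptor for exit from lymphoid tissue, was higher at 1 peak 36828 bases outside its span (0.82 ± 0.14), and Ctnnb1, which encodes beta-catenin, at 1 peak (0.48 ± 0.11). The other 15 genes, Ccr7 and Klf2 among them, had no called peak. The median over the 874 peaks was 0.05, against 0.00 over all tested peaks. With Dex in cKO none of the 874 was called (background 0.00296%), and none in the interaction (background 0.0276%). At backgrounds this low, the lack of a call says little about these genes. Among Dex-treated cells 6 of the 874 were lower in cKO (0.686%, background 0.13%) and 0 higher (background 0.04%). The 6 lay in Bcl2, Il7r, S1pr1 and Txnip (1.01% of all genes had a peak lower and 0.397% a peak higher).

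Among 14 genes of the effector side (Prdm1, Id2, Zeb2, Tbx21, Batf, Irf4, Bhlhe40, Klrg1, Gzmb, Ifng, Il2ra, Nfil3, Hif1a and Myc), 4 of 390 tested peaks were higher with Dex in WT (1.03%, background 0.42%) and 1 was lower (0.256%, background 0.114%). Hif1a, a hypoxia-response factor, was higher at 3 peaks, led by a peak 11423 bases outside its span (from 7.88 to 16.6 CPM, 1.08 ± 0.14), the only peak of the 2 lists called in the interaction (1.03 ± 0.21, edgeR adjusted p = 0.0241). Prdm1, which encodes the effector regulator Blimp-1, was higher at 1 peak (from 1.17 to 3.88 CPM, 1.72 ± 0.29), and Bhlhe40, a cytokine regulator, was lower at 1 (from 12.9 to 7.24 CPM, -0.83 ± 0.15). The median over the 390 peaks was 0.04. The effector list, too, was chosen with earlier results of these data known, so its shares are no independent support. With Dex in cKO none of the 390 was called, where the background of 0.00296% makes a call unlikely in any list of this size. Among Dex-treated cells 1 was higher in cKO, in Bhlhe40, and 3 were lower, in Hif1a and Prdm1 (0.256% and 0.769%, background 0.04% and 0.13%).

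Across the 12 libraries, the genes on other chromosomes whose log2 summed counts followed each of the 8 most closely were Cxxc5 for Tcf7 (Pearson r = 0.93), Gng2 for Lef1 (0.95), Ccdc50 for Bach2 (0.90), Nck2 for Satb1 (0.96), Utp23 for Foxo1 (0.94), Cetn4 for Foxp1 (0.95), Gadd45a for Id3 (0.94) and Tgfbr2 for Myb (0.90). Each is the highest of 5712 to 5933 genes with at least 10 tested peaks, and all share the libraries, their depth and their scaling. The runners-up followed closely, at r from 0.88 (Gna13 for Myb) to 0.95 (Csf2rb2 for Satb1), so the order among the most alike genes carries little.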

How the data were processed

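ATAC-seq was measured in 12 libraries, 3 in each of 4 groups, from 6000 sorted cells each with 16 PCR cycles, per the labels' protocols. The authors deposited 1 table of raw counts per peak; the submitters' processing notes list mm10, the peak caller Genrich 0.6.1, the counter featureCounts 2.1.1, the aligner Bowtie2 2.3.5, Trimmomatic 0.39, and the read tools SAMtools 1.3, Picard 2.18.27 and deepTools 3.5.6. The filters on reads, any shift of cut sites, the unit counted (reads or fragments) and the pooling of libraries for peak calling were not stated, and each could change the counts.

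Counts were fitted with edgeR 4.0.16 in R 4.3.3 (robust quasi-likelihood F-test, two-sided, TMM scaling, a low-count filter with a minimum count of 10 and a minimum total of 15), with 1 coefficient per group over all 12 libraries (8 residual degrees of freedom, median biological coefficient of variation 24.7%). Benjamini-Hochberg adjustment ran over all 202587 tested of 222105 peaks, and separately over 17394 of 17541 genes with summed counts. TMM factors were also fitted separately, so the peak CPM of a gene need not add up to its summed CPM. Totals ran from 12988437 to 25081591, and the number of libraries limits the precision. Scripts were tested on simulated data. Genes and RefSeq promoter windows came from GRCm38.p6. No 2 libraries of the same group agreed within sampling noise.

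The members and gene lists were chosen with earlier results of these data known. Named were, for each gene, its strongest peak, every called peak, the peak with the lowest p for Dex in WT and for the interaction where described, peaks over listed starts, the summed count, and the gene with the highest correlation to it; other peaks are said to be chosen after their values were seen. Alternatives were other scaling (total counts, loess offsets), DESeq2 1.42.0, other filters, the replicate number as a block, a covariate, only the libraries compared, peaks inside the span only, and leaving out each library. Scaling gene sums by the factors of the peak table was added after seeing the data. Some members of the marker and gene lists are counted but not reported by name here.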

Additional observations from a re-analysis of the deposited data

How the results depend on the processing

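For Dex in WT, where 1 peak of the 8 genes was called, total counts gave 4, loess offsets 7, DESeq2 3, a minimum count of 30 gave 9, the covariate 6, only the libraries compared 2, and leaving out 1 library 1 to 2. The share of all peaks called was 0.534% in the reported fit and 0.867%, 1.05%, 0.651%, 2.55%, 1.14% and 1.05% under the first 6 of these. For genotype under Dex (1 called), these gave 2, 6, 3, 7, 9, 2 and 1 to 2, with shares of 0.17% as reported and 0.441%, 0.488%, 0.324%, 2.01%, 0.896% and 0.243%. For the interaction (0 called), total counts, loess offsets, the stricter filter and the covariate gave 1 each (0.0276% of all peaks as reported, and 0.0558%, 0.0933%, 0.204% and 0.12%). Of the gene sums for Dex in WT (1 called), loess offsets and DESeq2 gave 2, only the libraries compared 3, leave-outs 0 to 3, and peak-table factors or peaks inside the span 0. The share of all genes called was 2.66% as reported, 3.46% with loess offsets, 3.21% with DESeq2 and 3.64% with only the libraries compared. It was 1.22% with peak-table factors and 1.63% with peaks inside the span, and the leave-outs called 233 to 560 genes. For sums by genotype under Dex (1 called), loess offsets and DESeq2 gave 2, the covariate 3, leave-outs 1 to 2, and peak-table factors 0. The share of all genes called was 2.36% as reported, 3.21% with loess offsets, 3.17% with DESeq2, 6.15% with the covariate and 0.989% with peak-table factors. Here the leave-outs called 95 to 431 genes. In control cells (0 called, 0.23% of all genes) the covariate gave 1, Foxp1 (0.5% of all genes). The causes were not tested.

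Whether same-numbered libraries form pairs stayed unclear. Of 18 such pairs, 3 had a correlation over 0.1, and their median was 0.044 against -0.011 for libraries of other numbers. Yet 8 of 12 libraries were closest to a library of their own number. With the replicate block, 4 peaks of the 8 genes were called for Dex in WT (0.862% of all peaks) and 4 for genotype under Dex (0.502%), and 3 and 2 gene sums (4.21% and 4.53% of all genes). Without the block, the shares were 0.534% and 0.17% of all peaks, and 2.66% and 2.36% of all genes.

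Over all peaks, 78.7% of calls for Dex in WT were higher, against 58.7% with total counts, 58.8% with loess offsets, 64.6% with the stricter filter and 48.2% with the covariate. For genotype under Dex it was 23.5%, against 56.4%, 53.3%, 34.7% and 67.2%. Of called gene sums, 62.1% were higher for Dex in WT and 56.6% for genotype under Dex, against 90.1% and 6.40% with peak-table factors. Among 200 single results, 4010 values under alternatives included 10 calls lost, 51 gained and 0 called values that changed sign. Weak peaks limit what these 3 libraries per group can show.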
